A study of Mus musculus with 12 samples.

Results

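Zinc handling genes were read out in RNA of mouse islets of Langerhans, the small groups of endocrine cells in the pancreas. The series has 6 libraries of C57BL/6 mice labelled as knockout (KO) for miR-17-92 and for miR-106b, each a cluster of microRNAs, and 6 labelled as their control. The 8 genes described were chosen by symbol, as 8 of 23339 gene rows of the count table. They are the exporters Slc30a8, Slc30a5 and Slc30a7, the importers Slc39a14, Slc39a6 and Slc39a7, and the metallothioneins Mt1 and Mt2. In the GRCm38 annotation Mt1 and Mt2 are neighbours on chromosome 8, and the transporters lie apart, Slc30a8 on chromosome 15, Slc30a5 on 13, Slc30a7 on 3, Slc39a14 on 14, Slc39a6 on 18 and Slc39a7 on 17. The labels give the genotype of the KO group as miR-17-92/106 KO; the alleles, the cell type in which the clusters were deleted, the genotype of the controls and the age and sex of the mice could not be taken from the labels. Nor do the labels tie libraries to animals, so p-values measure the spread between these libraries, which may be technical.

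Zinc is taken into the cytosol by importers of the Slc39 (ZIP) family and moved out of it, across the cell surface or into organelles, by exporters of the Slc30 (ZnT) family. Beta cells hold much zinc because insulin is stored in their granules as crystals with zinc, and ZnT8, the product of Slc30a8, carries zinc into those granules. Metallothioneins are small cysteine-rich proteins that bind free zinc, and zinc itself raises their transcription through the factor Mtf1, which binds metal response elements in their promoters.

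Total counts ran from 2642420 to 5099566 per library, of which 48.6% to 64.0% came from Ins1 and Ins2, leaving 1009760 to 1856671 counts for all other genes. Acinar markers, genes of the enzyme-secreting cells around the islets, made up 12.2% of KO replicate 5, 9.54% of KO replicate 6, 4.87% of control replicate 1 and 1.03% to 2.28% of the 9 remaining libraries. The number that opens each library's title ran from 659 to 703 in the KO group and was 706 in control replicate 1, whereas the other 5 controls had numbers from 805 to 992 (the labels do not say what these numbers mean). The transcripts of the deleted clusters could not check the labels: Mir17hg, the host of miR-17-92, had 17 counts in all KO and 11 in all control libraries, and Mcm7, whose intron holds the miR-106b cluster, had 147 and 123. In bulk RNA, fewer cells of a type and less RNA per cell cannot be told apart.

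The 2 clusters encode microRNAs of 4 seed families, and their mature sequences from RefSeq (build GRCm38.p6) are shown because the seed, bases 2 to 8, in capitals, sets which letters were searched for in the zinc genes.
miR-17-5p: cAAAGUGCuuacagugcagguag
miR-20a-5p: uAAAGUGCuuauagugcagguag
miR-106b-5p: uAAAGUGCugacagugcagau
miR-93-5p: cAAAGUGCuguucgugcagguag
miR-18a-5p: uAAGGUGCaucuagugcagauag
miR-19a-3p: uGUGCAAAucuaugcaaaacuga
miR-19b-3p: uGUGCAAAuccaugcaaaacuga
miR-92a-3p: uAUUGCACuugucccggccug
miR-25-3p: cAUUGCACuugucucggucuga

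A site was a match to bases 2 to 8 (7mer-m8), to bases 2 to 7 followed by an A (7mer-A1), or to both (8mer), in the 3′ UTR of the principal transcript. The letters searched were GCACTTT and CACTTTA for the miR-17 family, GCACCTT and CACCTTA for miR-18, TTTGCAC and TTGCACA for miR-19, and GTGCAAT and TGCAATA for miR-92 and miR-25. Among 8876 tested genes with a 3′ UTR, 21.14% held a site of the miR-17 family, 13.31% of miR-18, 17.96% of miR-19 and 13.02% of miR-92. Of the 8 zinc genes, Slc30a7 and Slc39a14 held a miR-17 site, Slc30a7 a miR-18 site, Slc30a7 and Slc30a5 a miR-19 site, and none a miR-92 site. The 3′ UTRs of Slc30a8, Slc39a6, Slc39a7, Mt1 and Mt2, of 534, 1044, 527, 134 and 141 bases, held none of these letters.

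The sites of the 3 genes are printed with their flanks, the matched letters in capitals, to show how many lie in Slc30a7, whose 3′ UTR of 7691 bases was the longest of the 8.
Slc30a7, miR-17 8mer at base 1511: atcagtgacagGCACTTTAtcaggaaggtg
Slc30a7, miR-17 7mer-m8 at base 2140: aaactgattttGCACTTTgttccaagagc
Slc30a7, miR-18 7mer-m8 at base 886: gacaagaaagaGCACCTTgggtggcagaa
Slc30a7, miR-19 8mer at base 978: ctctggttttgTTTGCACAaataccaatga
Slc30a7, miR-19 7mer-m8 at base 2137: gtgaaactgatTTTGCACtttgttccaag
Slc30a7, miR-19 7mer-A1 at base 7586: accttttctacTTGCACAcattgacatat
Slc39a14, miR-17 7mer-A1 at base 2340: ttgaaagattcCACTTTAcctagctcatg
Slc30a5, miR-19 7mer-A1 at base 73: cagagtgaaagTTGCACAtaattgtacga

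Positions count from 1 at the first base of the 3′ UTR. The miR-17 match at base 2140 and the miR-19 match at base 2137 of Slc30a7 overlap. A match of letters is a description of the sequence, not a measured site of binding.

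The first question was how abundant each transcript was in these islets. Levels between genes were compared as CPM, counts scaled to a common library size, per kilobase of the principal transcript, as means over the 12 libraries. Mt1 stood at 513.6 ± 138.4 and Mt2 at 467.1 ± 173.6 CPM per kilobase (SD, n = 12), with ranges that overlapped, and Mt1 was above Mt2 in 10 of 12 libraries. Slc30a8 followed at 148.3 ± 18.1 and Slc39a7, which encodes the ZIP7 importer of the endoplasmic reticulum and Golgi, at 99.6 ± 5.53. These 4 genes formed the upper tier: the lowest Slc39a7 value, 90.6 CPM per kilobase, lay above the highest of the other 4 genes, 8.82.

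The lower tier held the other 4 genes. Slc30a5, whose product ZnT5 loads zinc into the early secretory pathway, had 6.99 ± 0.77 CPM per kilobase. Slc39a6, which encodes the surface importer ZIP6, had 2.72 ± 0.49, Slc30a7, which encodes the Golgi exporter ZnT7, 1.15 ± 0.36, and Slc39a14, which encodes ZIP14, an importer of zinc, iron and manganese at the cell surface, 0.78 ± 0.21. The ranges of neighbouring genes overlapped from Slc39a6 downwards. Per kilobase of coding sequence Slc30a7 moved to 9.17 ± 2.89, above Slc39a6 at 4.61 ± 0.83 and overlapping Slc30a5 at 9.74 ± 1.08, because most of its transcript is 3′ UTR.

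**Figure D1:**
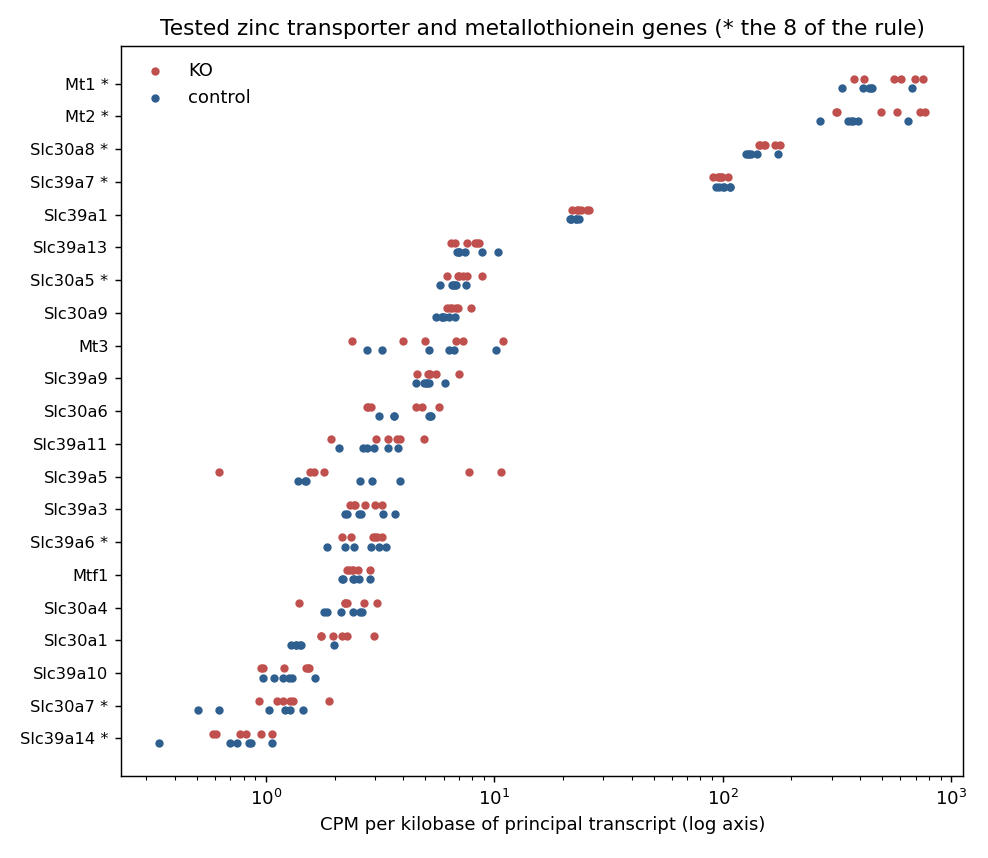
CPM per kilobase of the principal transcript (log axis) for each tested zinc transporter gene, metallothionein and Mtf1, 1 point per library, KO red and control blue; an asterisk marks the 8 genes described. Mt1, Mt2, Slc30a8 and Slc39a7 lie at or above 90.6, and every other gene lies at or below 26.0.

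Against the rest of both families, 21 of 29 listed genes passed the filter on low counts. The importer Slc39a1, at 23.2 ± 1.45 CPM per kilobase, was the only tested family gene with a mean between the ranges of the tiers, above 8.82 and below 90.6. Slc39a13, at 7.80 ± 1.14, had a mean above that of Slc30a5, with overlapping ranges. Slc30a3, Slc39a12 and Mt4 had 0 counts in all 12 libraries, which allows up to 0.588 to 1.14 CPM per library (3 counts, counting error only). Slc30a2, Slc30a10, Slc39a2, Slc39a4 and Slc39a8 had counts but were too low to be tested. Among the exporters, Slc30a8 alone stood in the upper tier.

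The comparison of KO with control asked which islet transcripts differ when both clusters are deleted. None of the 8 zinc genes passed an adjusted p of 0.05 in edgeR's quasi-likelihood test, in which 12 of 9664 genes passed, 0.124%. DESeq2 called none of the 8 either, against 0.212% of 12761 genes. At an unadjusted p under 0.05, 1 of the 8 genes, Mt2, passed in edgeR, where 7.91% of all tested genes did. In DESeq2 1 of the 8 passed, Slc30a8 and not Mt2, where 5.58% of genes did. The KO and control ranges of CPM overlapped for all 8, and they did not overlap for 0.579% of tested genes. On the log2 scale, 7 estimates lay above 0 and Slc39a7 below.

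**Figure D2:**
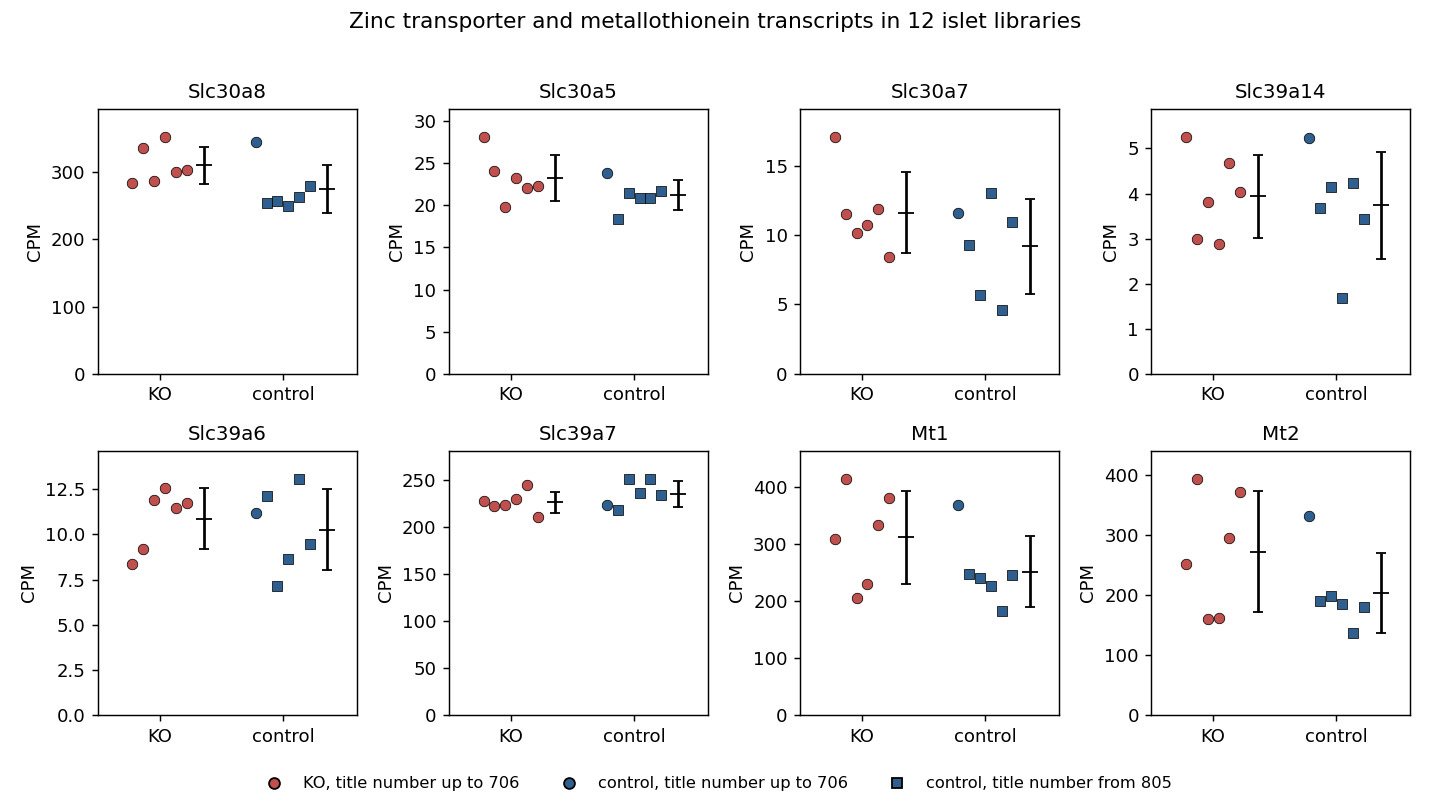
CPM of each of the 8 genes in every library (KO red, control blue; circles, title numbers up to 706; squares, from 805), with the mean and SD of each group of 6 beside the points. KO and control overlap in every panel, and control replicate 1, the blue circle, is the highest control for Slc30a8, Mt1 and Mt2.

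Slc30a8, the granule exporter of beta cells, had a lowest, median and highest level of 283.4, 301.8 and 351.4 CPM in KO and of 249.4, 259.9 and 344.4 CPM in control libraries. All 6 KO libraries lay above the control mean, and 1 control, replicate 1, lay among the KO libraries. The group means were 310.2 ± 27.3 and 274.4 ± 35.8 CPM (SD, n = 6 in each group; exact permutation p = 0.0909). The log2 fold change was 0.18 ± 0.10 (SE; 95% interval -0.02 to 0.38; edgeR adjusted p = 0.684). The authors' deposited table gives 0.18 with an unadjusted p of 0.0240.

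Without control replicate 1 the Slc30a8 ranges separated, at 283.4 to 351.4 CPM in KO and 249.4 to 278.9 CPM in control libraries. This separation held for 1 of the 8 genes and for 1.0% of all tested genes. The log2 fold change was then 0.25 ± 0.09, with an edgeR adjusted p of 0.351. The same ranges separated by title number: the 7 libraries numbered up to 706, control replicate 1 among them, held 283.4 to 351.4 CPM and the 5 from 805 held 249.4 to 278.9 CPM, a split that 0.476% of tested genes showed. With a term for the title number in edgeR, the KO estimate was -0.15 ± 0.16. Only 1 control has a number up to 706 and no KO library one from 805, so a value within each range of numbers has 1 control or no KO library. Beyond that 1 control, title number and genotype cannot be told apart.

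To set Slc30a8 against other beta cell transcripts of the same library, its log2 CPM was compared with the mean log2 CPM of 10 beta cell markers, among them Ins1, Ins2, Pdx1 and Mafa. Slc30a8 lay below that mean by a log2 difference of -1.81 to -2.17 in KO (median -2.01) and of -1.87 to -2.43 in control libraries (median -2.25). The group means were 0.21 apart, higher in KO, with SDs of 0.13 and 0.20 (exact permutation p = 0.0649, where the smallest possible is 0.00216). Leaving out control replicate 1 gave 0.27 (exact permutation p = 0.0108) and leaving out KO replicate 1 gave 0.24 (exact permutation p = 0.0411). Leaving out any of the other 10 libraries gave 0.16 to 0.22 and left the exact permutation p between 0.0671 and 0.130. The beta cell list itself had 5 estimates above and 5 below 0, with a median of -0.02, and its summed level was 561684 to 656548 CPM in KO and 529606 to 705838 CPM in control libraries. Its member with the smallest p, the insulin gene activator Mafa, had a log2 fold change of -0.19 ± 0.10 (edgeR adjusted p = 0.684).

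Of the exporters of the secretory pathway, Slc30a7 had group means that differed by 2.44 CPM, less than the SD of either group. For Slc30a5 the difference of 2.07 CPM was below the SD of the KO group but above that of the controls. Slc30a5 ran from 19.8 through a median of 22.8 to 28.1 CPM in KO and from 18.4 through 21.2 to 23.9 CPM in control libraries. Its means were 23.3 ± 2.76 and 21.2 ± 1.77 CPM, with 5 of 6 KO libraries above the control mean (exact permutation p = 0.158). The 2 ranges overlapped, with KO replicates 1 and 2 above every control, and the log2 fold change was 0.15 ± 0.10 (95% interval -0.06 to 0.36; edgeR adjusted p = 0.764). Leaving out 1 library gave 0.09 to 0.20, the lowest without KO replicate 1.

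Slc30a7, the gene with 6 seed matches above, ran from 8.42 through 11.1 to 17.04 CPM in KO and from 4.57 through 10.1 to 13.1 CPM in control libraries, on 14 to 65 counts per library. The 2 lowest libraries were controls and the highest was KO replicate 1, while the rest were interspersed. Its means were 11.6 ± 2.92 and 9.18 ± 3.40 CPM (exact permutation p = 0.219), and its log2 fold change was 0.30 ± 0.21 (95% interval -0.12 to 0.73; edgeR adjusted p = 0.766). Leaving out 1 library moved the estimate between 0.16 and 0.44, with 0.16 without KO replicate 1 and 0.18 without control replicate 5. Reads of Slc30a7 could in part come from 2 genes on the opposite strand, Gm43106 and Gm6649, which cover 5.73% and 10.5% of its exon bases in the GENCODE annotation and are not among the rows; whether counting used strand is not stated in the labels.

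The importers showed the smallest estimates. Slc39a7 ran from 210.2 through 225.8 to 244.3 CPM in KO and from 217.8 through 234.9 to 251.1 CPM in control libraries. Its CPM had the lowest coefficient of variation of the 8 genes, 4.93% in KO and 5.82% in control libraries, a measure that includes counting error. The biological coefficient of variation in edgeR is meant to leave counting error out, but each estimate is drawn toward that of genes of similar abundance. For Slc39a7 it was 0.119, where such genes had 0.155. That exceeds the variation of its CPM, so 0.119 is not the measured spread of this gene. For Slc39a6 the estimate was 0.116 and for Slc30a5 0.070, where genes of their abundance had 0.128 and 0.096. Slc39a7 was the only one of the 8 with a KO mean below the control mean, 226.4 ± 11.2 against 235.5 ± 13.7 CPM (exact permutation p = 0.225). Its log2 fold change was -0.06 ± 0.08, and the 95% interval of -0.22 to 0.11 is the narrowest of the 8 (edgeR adjusted p = 0.927). A model gene on the same strand, Gm20427, covers 80.7% of the exon bases of Slc39a7 and is not among the rows, so how the authors' counting treated these reads is uncertain.

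Slc39a6 had 8.39, 11.6 and 12.6 CPM as lowest, median and highest in KO and 7.16, 10.3 and 13.1 CPM in control libraries. Control libraries held both the lowest and the highest value, and the log2 fold change was 0.08 ± 0.16 (95% interval -0.26 to 0.41; edgeR adjusted p = 0.954). Leaving out 1 library gave 0.01 (without control replicate 3) to 0.15 (without control replicate 5). Slc39a14, with 8 to 20 counts per library, had 2.88, 3.92 and 5.24 CPM in KO and 1.69, 3.91 and 5.22 CPM in control libraries. The group medians were nearly equal, and the log2 fold change of 0.10 ± 0.26 had the widest interval of the 8, -0.43 to 0.63 (edgeR adjusted p = 0.967). The sign of the Slc39a14 estimate turned to -0.08 without control replicate 4 and to -0.01 without KO replicate 1.

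The metallothioneins, the zinc-binding proteins of the cytosol, had the largest KO estimates of the 8 genes, with Slc30a7 close to Mt1, and the largest biological coefficients of variation in edgeR. Mt1 ran from 205.9 through a median of 320.7 to 414.1 CPM in KO and from 183.5 through 242.9 to 368.7 CPM in control libraries. Its means were 311.9 ± 82.0 and 252.0 ± 61.9 CPM (exact permutation p = 0.182), and its log2 fold change was 0.31 ± 0.16 (95% interval -0.01 to 0.63; edgeR adjusted p = 0.664). In KO, 4 of 6 libraries lay above the control mean, and KO replicates 3 and 4 lay within the range of controls 2 to 6.

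Mt2 ran from 160.3 through 274.2 to 393.9 CPM in KO and from 136.8 through 188.5 to 332.5 CPM in control libraries. Its means were 273.0 ± 100.4 and 204.4 ± 66.4 CPM (exact permutation p = 0.188). The log2 fold change of 0.42 ± 0.20 had a 95% interval of 0.01 to 0.83, an edgeR unadjusted p of 0.0464 and an edgeR adjusted p of 0.614. In edgeR, but not in DESeq2, Mt2 was the 1 gene of the 8 with an unadjusted p under 0.05, and it failed the correction. The authors' deposited table gives 0.42 for Mt2 and 0.31 for Mt1, with unadjusted p-values of 0.148 and 0.144. Between libraries of a group, edgeR estimated a biological coefficient of variation of 0.251 for Mt2 and 0.205 for Mt1, where genes of their abundance had 0.156 and 0.165. Without control replicate 1 the estimates were 0.45 ± 0.14 for Mt1 and 0.61 ± 0.18 for Mt2 (edgeR adjusted p = 0.289 and 0.230). With the title number term they were -0.24 ± 0.25 and -0.29 ± 0.32.

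Libraries high in one metallothionein were high in the other. Their summed level was 561.6 to 808.0 CPM in KO replicates 1, 2, 5 and 6, 701.2 CPM in control replicate 1, 366.2 and 391.9 CPM in KO replicates 3 and 4, and 320.3 to 440.0 CPM in the other 5 controls. Over the deviations from the group means, Mt1 and Mt2 had a Pearson r of 0.988 (permutation p = 4e-05, adjusted 0.00112) and a Spearman rho of 0.937 (permutation p = 0.0005, adjusted 0.014; n = 12 libraries). The relation held within KO (r = 0.991, n = 6) and within control libraries (r = 0.986, n = 6), and r was 0.982 without the 2 libraries farthest from the median of Mt1. Of the 28 pairs among the 8 genes, for which the p-values were adjusted, it was the only one to pass, and the next lowest adjusted Pearson p was 0.65. The longest identical stretch of their annotated transcripts is 20 bases.

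The balance of the pair differed less than its spread. The ratio of Mt1 to Mt2 was 1.02 to 1.41 in KO (mean 1.19 ± 0.15) and 1.11 to 1.35 in control libraries (mean 1.25 ± 0.09). The KO minus control difference of the log2 ratio was -0.09 (two-sided exact permutation p = 0.331). The 3 libraries with the highest summed level, KO replicates 2 and 6 and control replicate 1, had ratios of 1.05, 1.02 and 1.11, the 3 lowest of the 12. An antisense model gene, Gm45774, covers 73.5% of the exon bases of Mt2 and is not among the rows, so reads of the 2 cannot be told apart unless counting used strand.

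**Figure D3:**
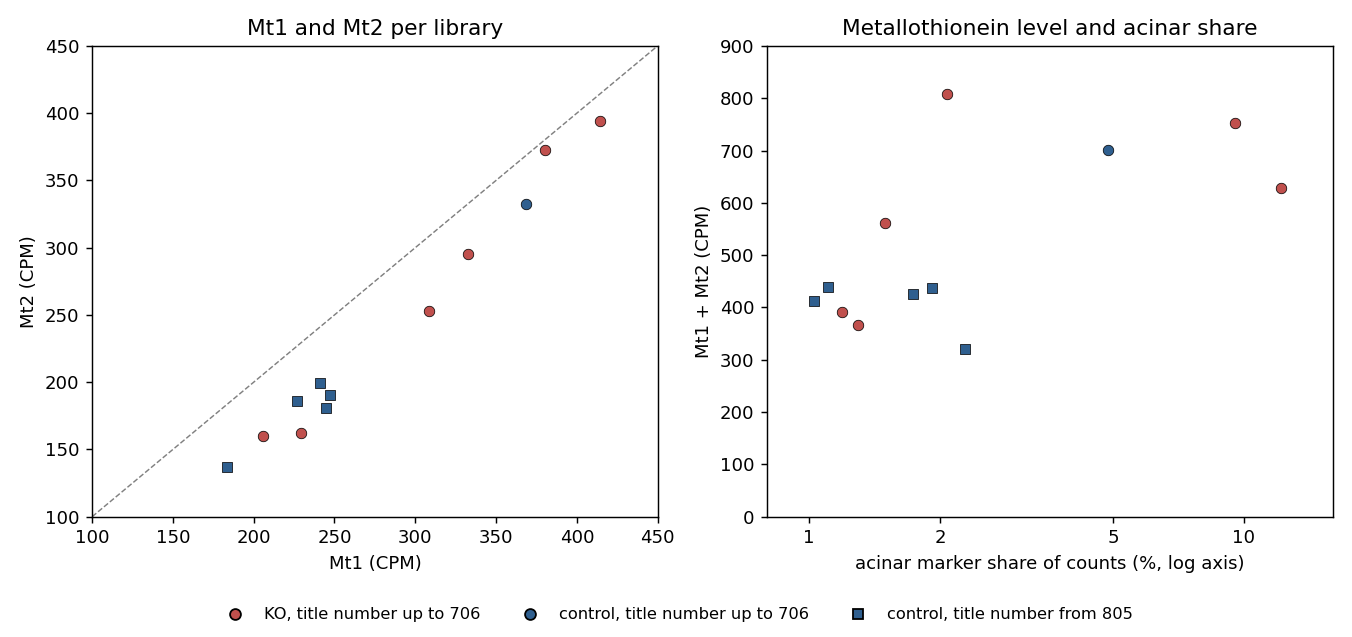
Left, Mt2 against Mt1 in CPM for the 12 libraries (KO red, control blue; circles, title numbers up to 706; squares, from 805), with a dashed line where both are equal. Right, their sum against the acinar marker share of counts (log axis): the 3 libraries of high share lie at 628.1 to 753.3 CPM, but the highest sum, 808.0 CPM, belongs to KO replicate 2 with a share of 2.08%.

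The promoters of the pair are shown because both genes moved together and their regulation by zinc runs through metal response elements. The windows, from 250 bases before to 50 after the RefSeq start (GRCm38.p6), lie near each other on the forward strand of chromosome 8, Mt1 at chr8:94178839-94179138 and Mt2 at chr8:94172368-94172667. Capitals mark matches to the element's core, searched as TGCACNC and TGCGCNC on both strands.
Mt1: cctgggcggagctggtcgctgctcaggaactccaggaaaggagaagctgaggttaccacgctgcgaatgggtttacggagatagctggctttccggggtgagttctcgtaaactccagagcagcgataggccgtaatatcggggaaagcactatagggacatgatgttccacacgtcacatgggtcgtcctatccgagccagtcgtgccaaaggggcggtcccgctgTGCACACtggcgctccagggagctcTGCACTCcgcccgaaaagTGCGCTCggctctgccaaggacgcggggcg
Mt2: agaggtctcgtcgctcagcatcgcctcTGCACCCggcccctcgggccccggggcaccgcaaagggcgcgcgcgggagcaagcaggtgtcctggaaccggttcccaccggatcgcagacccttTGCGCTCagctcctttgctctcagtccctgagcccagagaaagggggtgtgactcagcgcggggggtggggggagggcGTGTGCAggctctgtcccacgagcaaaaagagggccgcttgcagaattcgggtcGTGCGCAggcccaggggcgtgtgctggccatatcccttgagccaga

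Mt1 held 3 matches, all on the forward strand, and Mt2 held 4, of which 2 were on the reverse strand, and no match overlapped another. Of 32851 promoters of the same length, 25.7% held at least 1 match and 1.97% at least 3. RefSeq windows were at hand for 5 of the 8 genes: Slc30a5 had 1 match, and Slc30a7 and Slc39a7 none. Other annotated starts of Mt1 and Mt2 lie up to 152 and 242 bases further downstream, so the windows need not be the promoters in use in islets.

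The wider zinc families were tested in the same way. None of the 21 tested genes of the 3 lists passed the adjusted threshold, and 3 had an unadjusted p under 0.05, namely Slc30a1, Slc30a9 and Mt2. Estimates lay above 0 for 18 and below for 3, with a median log2 fold change of 0.10, while over all 9664 tested genes 4894 lay above and 4770 below, with a median of 0.0033. Of the exporters, 7 of 10 were tested and 6 lay above 0 (median 0.17). Of the importers, 10 of 14 were tested and 8 lay above 0 (median 0.09), and Slc39a1 had their smallest p, with 0.09 ± 0.07 (edgeR adjusted p = 0.783). All 4 tested of the 5 metallothionein and Mtf1 genes lay above 0 (median 0.19), with Mtf1 itself at 0.01 ± 0.10.

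Slc30a1, the exporter of the cell surface, which Mtf1 induces with the metallothioneins when zinc is high, had the largest estimate of the exporters. It ran from 9.13 through 10.8 to 15.6 CPM in KO and from 6.78 through 7.26 to 10.45 CPM in control libraries. All 6 KO libraries lay above the control mean, and control replicate 5 overlapped the KO libraries. Its means were 11.2 ± 2.40 and 7.72 ± 1.36 CPM (exact permutation p = 0.00866), and its log2 fold change was 0.55 ± 0.17 (95% interval 0.20 to 0.90; unadjusted p = 0.00337; edgeR adjusted p = 0.314). Control replicate 1, high in Mt1 and Mt2, was at 7.09 CPM here, among the other controls. With the title number term the Slc30a1 estimate was 0.67 ± 0.37 (edgeR adjusted p = 0.905), and over 20 alternatives it ran from 0.41 to 0.67.

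Transcripts of other cell types differed between libraries beside these values. Of 20 acinar markers, 17 were tested and all 17 had estimates above 0 (median 1.19), none past the adjusted threshold, and Gp2 had the smallest p with 1.55 ± 0.52 (edgeR adjusted p = 0.381). Their summed level was 12140 to 136546 CPM in KO and 11052 to 51316 CPM in control libraries, the highest control being replicate 1, and Prss1 and Amy2a5 were at 0 in 10 and 11 of 12 libraries. With the log2 acinar share as a covariate the estimates were 0.17 ± 0.08 for Slc30a8, 0.20 ± 0.11 for Mt1 and 0.26 ± 0.13 for Mt2. Without the 3 libraries of high acinar share they were 0.27 ± 0.08, 0.34 ± 0.12 and 0.44 ± 0.15, with edgeR adjusted p-values of 0.189, 0.348 and 0.312. These 3 libraries include control replicate 1, the only control with a title number up to 706. Leaving out high acinar share and leaving out that control therefore cannot be told apart, and in this fit title number and genotype coincide. Slc39a5, an importer made by acinar cells and enterocytes of the mouse, was at 21.7 and 15.7 CPM in KO replicates 5 and 6, at 7.84 CPM in control replicate 1 and at 1.27 to 5.90 CPM in the other 9 libraries.

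**Figure D4:**
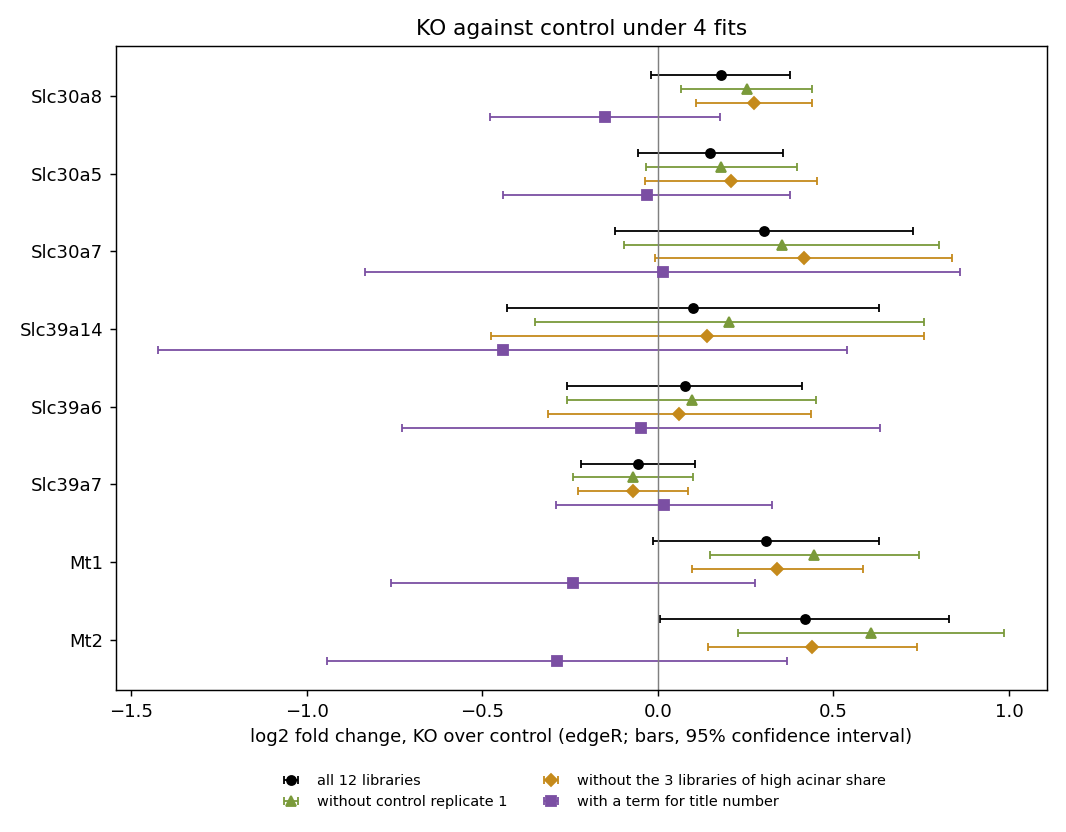
edgeR log2 fold change of KO over control for the 8 genes, with 95% confidence intervals, from all 12 libraries, without control replicate 1, without the 3 libraries of high acinar share, and with a term for the title number. Estimates of Slc30a8, Mt1 and Mt2 are larger without control replicate 1 (0.25, 0.45 and 0.61) and below 0 with the title number term (-0.15, -0.24 and -0.29).

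The other cell type lists held no gene past the adjusted threshold. Alpha cell markers had 1 of 7 estimates above 0 (median -0.27), with Gcg, the glucagon gene, at -0.41 ± 0.16 (edgeR adjusted p = 0.515), and their sum was 5761 to 7578 CPM in KO and 5661 to 13468 CPM in control libraries, again highest in replicate 1. Delta and PP cell markers had 1 of 4 above 0 (median -0.30), and the delta cell gene Sst had the smallest p with -0.41 ± 0.12 (edgeR adjusted p = 0.300). Ppy, the only PP cell hormone of this list, went the other way, with 63741 counts over the KO and 43306 over the control libraries. Sst, Hhex and Rbp4 had fewer counts in KO. Of 8 ductal markers, only 5 were tested, and these 5 lay above 0 (median 0.29), led by Spp1 at 0.44 ± 0.19 (edgeR adjusted p = 0.591). Endothelial markers had 1 of 6 above 0 (median -0.19), led by Plvap at -0.36 ± 0.10 (edgeR adjusted p = 0.177). Of 7 leukocyte markers, 4 were tested and all 4 lay above 0 (median 0.52), led by Cd52 at 1.86 ± 0.62 (edgeR adjusted p = 0.376). Cd52 ran from 4.06 through a median of 6.11 to 74.0 CPM in KO and from 3.22 through 4.29 to 6.03 CPM in control libraries. The leukocyte share of counts was 0.0202% in KO replicate 6 and at most 0.00575% in any other library. No stellate or fibroblast marker passed the filter. The part of these cell types in the values of the zinc genes was not tested.

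Metallothionein genes are also induced by glucocorticoids, and they and Slc39a14 respond in mouse liver to interleukin-6, which acts through Stat3, so lists of those responses were set beside them. Of 10 glucocorticoid response genes, 8 were tested, 3 lay above 0 (median -0.14) and none passed, and the clock gene Per1 had the smallest p with -0.33 ± 0.15 (edgeR adjusted p = 0.614). Of 10 Stat3 and acute phase genes, 5 were tested, 2 lay above 0 (median -0.06) and none passed, with Cebpd, a transcription factor of the acute phase, at -0.50 ± 0.23 (edgeR adjusted p = 0.608). Whether either response had a part in the metallothionein levels was not tested.

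The genes most like each zinc gene over the libraries were named by the highest Pearson r of deviations from the group means, among about 3470 tested genes with a mean of at least 20 CPM; these values are descriptions over 12 libraries that share depth and composition. For Slc30a8 they were Trim25 (0.887), Ppme1 (0.878) and Tsen34 (0.858), and for Slc30a5 Anxa7 (0.873), Mgea5 (0.871) and Copz2 (0.860). Slc30a7 was most like Gmppb (0.808), Mbd2 (0.805) and A530058N18Rik (0.778), and Slc39a14 most like Kdm2a (0.849), Tanc2 (0.831) and Adtrp (0.784). For Slc39a6 they were Gcn1l1 (0.868), Lin7c (0.805) and Mpnd (0.767), and for Slc39a7 Dgcr2 (0.899), Fam174b (0.882) and Tacc1 (0.879). Only the metallothioneins shared their list: after each other, both were most like Oaz2 (0.840 for Mt1 and 0.879 for Mt2) and Acadsb (0.831 and 0.840). No other of the 8 genes had a member of the set among its 3, but Slc30a7, Slc39a14 and Slc39a6 could not be named, since their means were below 20 CPM.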

How the data were processed

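Per the labels' protocols, total RNA of the islets was taken up in Trizol, purified on miRNeasy columns and made into Illumina libraries. The submitters' processing notes list TopHat2, HTSeq, DESeq2 (1.4.5) and mm9 but not what each was used for, and neither strandedness nor the gene annotation is stated. The deposited table of 23366 rows held raw read counts per gene, per the file headers. The authors' normalized values are a signal equal to the count divided by 1 factor per library, 0.662 to 1.35, and were used only to check this. Per the file headers, the authors' log2 fold changes and p-values were made with DESeq2. In 27 rows, with 0.0447% of the counts, the name had turned into a date, and they were left out. Total counts of 2642420 to 5099566 bound the precision, and a limit from counts covers counting error alone because PCR copies of a molecule are counted too.

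The test was edgeR 4.0.16 (R 4.3.3) quasi-likelihood on the counts with TMM factors, its default expression filter (minimum count 10, minimum total 15) and Benjamini-Hochberg adjustment over all 9664 tested genes, with a threshold of 0.05, for 6 KO against 6 control libraries. CPM used TMM-scaled library sizes, and log2 CPM a prior count of 2. All permutation tests were two-sided, exact over all splits between groups and with 100000 resamples within groups for correlations. The exception was the replicate block of Slc30a8 relative to the beta cell markers, an exact test over sign flips of the same-numbered KO minus control differences. The SE is the log2 fold change divided by the root of the F statistic. No library was treated as a copy of another, since the most similar of 66 pairs still had a chi-square per gene of 1.97. Groups and replicate numbers came from the titles.

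The 8 genes and all lists were chosen with earlier results of these data known. The rule for names took all 8 genes, of each list the genes past the threshold or, with none, the one with the smallest p, the other tested Slc30 and Slc39 genes and Mtf1 by level, and the 3 genes most like each of the 8; Slc30a9, Slc39a5 and Slc39a8 values were added after they were seen. Lengths, 3′ UTRs and overlaps came from the GENCODE M21 annotation of GRCm38, which differs from mm9 and gave no position of reads; microRNA and promoter sequences came from RefSeq. Alternatives were DESeq2 1.42.0, other scaling, no filter, a replicate block, an acinar covariate, a title number term and libraries left out. Figures were drawn with matplotlib 3.10.9.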

Additional observations from a re-analysis of the deposited data

Results flagged for a closer look

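Control replicate 1 stood apart from the other 5 controls for 3 of the zinc genes. Its Slc30a8 level was 344.4 CPM where the next control had 278.9, its Mt1 level 368.7 CPM where the next had 247.3, and its Mt2 level 332.5 CPM where the next had 199.3. The gap took 0.689, 0.656 and 0.681 of the range of the 6 controls, above the critical value of 0.625 (Dixon's test at 95%). In 20 groups checked (the 8 genes and 2 ratios in KO and control) these were the 3 such values, and chance alone gives about 1 in 20; Mt1 and Mt2 are not independent of each other. The same library had an acinar share of 4.87%, the highest Gcg level at 12466 CPM, and the only control title number up to 706; the part of these in its levels was not tested.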

How the results depend on the processing

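Depth limited the low genes most, since Slc39a14 rested on 8 to 20 and Slc30a7 on 14 to 65 counts per library. Of all genes, 12 were called, against 27 by DESeq2, 19 with scaling without insulin and acinar genes, 22 without a filter, 33 with the acinar covariate, 30 without the 3 libraries of high acinar share, and 5 to 17 leaving out 1 library (5 without KO replicate 1, 6 without KO replicate 4, 7 without control replicate 5); the cause was not tested. With the title number term 0 were called by edgeR, 530 having an unadjusted p under 0.05. None of these fits called any of the 8 genes. Of 160 alternative estimates for them, 151 kept their direction, with adjusted p-values over all 160 from 0.1893 to 0.9997. The 9 that reversed were 7 under the title number term, at -0.1505 for Slc30a8, -0.0321 for Slc30a5, -0.442 for Slc39a14, -0.04838 for Slc39a6, 0.01815 for Slc39a7, -0.2424 for Mt1 and -0.2867 for Mt2, and 2 for Slc39a14, which ran from -0.07883 to 0.2027 leaving out 1 library. That term leaves 1 control to set against 6 KO libraries. For Slc30a8 relative to the beta cell markers, the difference passed 0.05 when the 3 acinar-rich libraries, control replicate 1 among them, were left out (0.2817, exact permutation p = 0.03175). Leaving out 1 library gave 0.1608 to 0.2732 (exact permutation p from 0.01082 to 0.1299). With a replicate block, an exact sign-flip test on the same-numbered pairs gave p = 0.1875. That test has fewer possible outcomes than the test over splits, so these p-values are not on an equal footing. Same-numbered libraries did not deviate together (correlations from -0.115 to 0.0516), so the main test did not pair them. Such correlations cannot exclude a pairing with a weak effect. With a replicate block 15 genes and none of the 8 were called, with Slc30a8 at 0.1831, Mt1 at 0.2957 and Mt2 at 0.3832.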

Other observations

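Slc39a8, the zinc importer ZIP8, fell below the filter on low counts, with 31 counts over the 6 KO and 8 over the 6 control libraries. It had 1 to 9 counts per library in KO and 0 to 3 in control libraries. Without a count filter its log2 fold change was 1.85 ± 0.63 (95% interval 0.57 to 3.12; unadjusted p = 0.00564; edgeR adjusted p = 0.349), and in DESeq2 it was 1.94 ± 0.74 with an adjusted p of 0.656. This gene was picked for its values, among 26 zinc family genes in that fit, and did not pass the correction.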
